A study of Mus musculus with 6 samples.

Results

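Mature neutrophils of the spleen were compared with mature neutrophils of the bone marrow in mice that carried EMT6 tumors, EMT6 being a mouse mammary carcinoma line. The cells were chosen by transcript levels alone: at least 1 UMI (unique molecular identifier, 1 counted transcript molecule) of Csf3r, at least 1% of UMIs from S100a8 and S100a9, under 0.5% from Ngp, Camp and Ltf together, under 0.1% from Elane, Prtn3 and Mpo together, and 0 UMIs of Cd3e and Cd79a. Of 28870 barcodes kept in 4 single-cell libraries, 3502 met this rule. They were 66 of 5257 kept cells (1.26%) in marrow labelled WT, 2153 of 8962 (24%) in spleen labelled WT, 266 of 6394 (4.16%) in marrow labelled Cysltr1 KO and 1017 of 8257 (12.3%) in spleen labelled Cysltr1 KO. All mice bore the tumor, and the WT controls were BALB/c. The sources used here do not say whether marrow and spleen came from the same animals. Each library came from a pool of 3 mice, and the age of the animals and the nature of the Cysltr1 deficiency are not given in the sources used here. Marrow had been enriched for hematopoietic progenitors and spleen for CD45, both with magnetic kits, so the tissue and the enrichment cannot be told apart, and the shares above describe the enriched samples.

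Neutrophils are made in the marrow, where precursors fill their granules in an order: primary (azurophil) granules with Elane and Mpo, then specific granules with Ltf and Camp, then gelatinase granules with Mmp8 and Mmp9. Finished cells stop making most granule messages, keep large amounts of S100a8 and S100a9 mRNA, and leave for the blood, spleen and tissues. In tumor-bearing animals the spleen is a site where neutrophils gather, and activated neutrophils make interleukin 1 beta, CXC chemokines and interferon-induced proteins.

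The comparison was made within the 2 libraries labelled WT (the WT pair) and again within the 2 labelled Cysltr1 KO (the KO pair), and a difference was counted only when both pairs gave it. With 1 library for each tissue and label there is no replicate within a pair and no test of a difference was run. Intervals given below are exact 95% intervals that cover counting error only. The labels were checked against Cysltr1 (chromosome X, 106574346 to 106603679, mm10), the gene named in them, a receptor for cysteinyl leukotrienes. Its level in mature neutrophils was 14.2 CPM (the UMIs of the gene over all UMIs of the members, scaled to a common total) in marrow labelled WT from 5 UMIs, 3.37 in spleen labelled WT from 20 UMIs, 142 in marrow labelled Cysltr1 KO and 161 in spleen labelled Cysltr1 KO. The gene was therefore higher in the libraries labelled KO, against the label. The deleted part of the gene is not given in the sources used here, and transcripts from outside it would still be counted. No comparison below is between genotypes, and "KO" is used only as the name of a pair.

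The genes that mark mature neutrophils were measured in all 4 libraries. Csf3r, the receptor for the growth factor G-CSF, was at 514, 1680, 672 and 2172 CPM in the order marrow WT, spleen WT, marrow KO, spleen KO, which is the order used for every set of 4 values here. Its use in the rule makes this a description. Cxcr2, the receptor for neutrophil-attracting chemokines and not part of the rule, was at 571, 1270, 716 and 1374 CPM. Retnlg, a secreted protein of mature mouse neutrophils, was at 30899, 13295, 29558 and 3932 CPM. Both spleen libraries lay below both marrow libraries for Retnlg, and above them for Cxcr2 and Csf3r.

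Few cells lay near the S100a8 and S100a9 limit and the specific granule limit of the rule. Cells near its Csf3r limit and its Elane, Prtn3 and Mpo limit were not counted. Between 1 and 1.2% of S100a8 and S100a9 there were 0, 15, 0 and 10 cells, and just outside, between 0.8 and 1%, there were 0, 15, 0 and 9. For the specific granule genes, 2, 12, 13 and 3 cells lay between 0.4 and 0.5% and 2, 8, 15 and 2 between 0.5 and 0.6%. The S100a8 and S100a9 share of those inside this second limit had medians of 30.5, 27.9, 31.8 and 34.9%, against 29.9, 26.9, 32.2 and 34.4% just outside it.

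The members held 352013, 5934930, 776515 and 2798593 UMIs in all, with medians of 3978, 2259, 2061 and 2417 per cell. Marrow labelled WT is the thinnest library by number of cells, and a gene with 0 UMIs there can be as high as 8.52 CPM (3 counts). Spleen labelled WT and spleen labelled KO shared 5 barcodes among their mature neutrophils, and the other pairs of libraries shared 0.

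Genes were compared where a pair had at least 30 UMIs and a mean of at least 50 CPM in each of both pairs, and where the level in the higher tissue was at least 20% of the level in all other kept cells of that library, a guard against free RNA. This left 2132 genes. A gene was called when spleen and marrow were at least 2-fold apart with an interval of the ratio that excluded 1. Log2 ratios were taken after adding 1 CPM to each level. In the WT pair 329 genes were higher in spleen (15.4% of those compared) and 272 lower (12.8%); in the KO pair 384 were higher (18.0%) and 322 lower (15.1%). Both pairs called 257 genes higher (12.1%) and 235 lower (11.0%), which were 78.1% and 66.9% of the higher calls of the WT and KO pairs and 86.4% and 73.0% of the lower calls. Across the 2132 genes the log2 ratios of the pairs had a Pearson r of 0.893, as a description over genes, which are not independent replicates, and 85.5% had the same sign. The pairs share no library. Centred on the median of all genes, which was 0.12 and 0.19 on the log2 scale, the counts were 188 higher and 272 lower, and with S100a8, S100a9, mitochondrial and ribosomal genes taken out of the total they were 200 and 299.

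**Figure D1:**
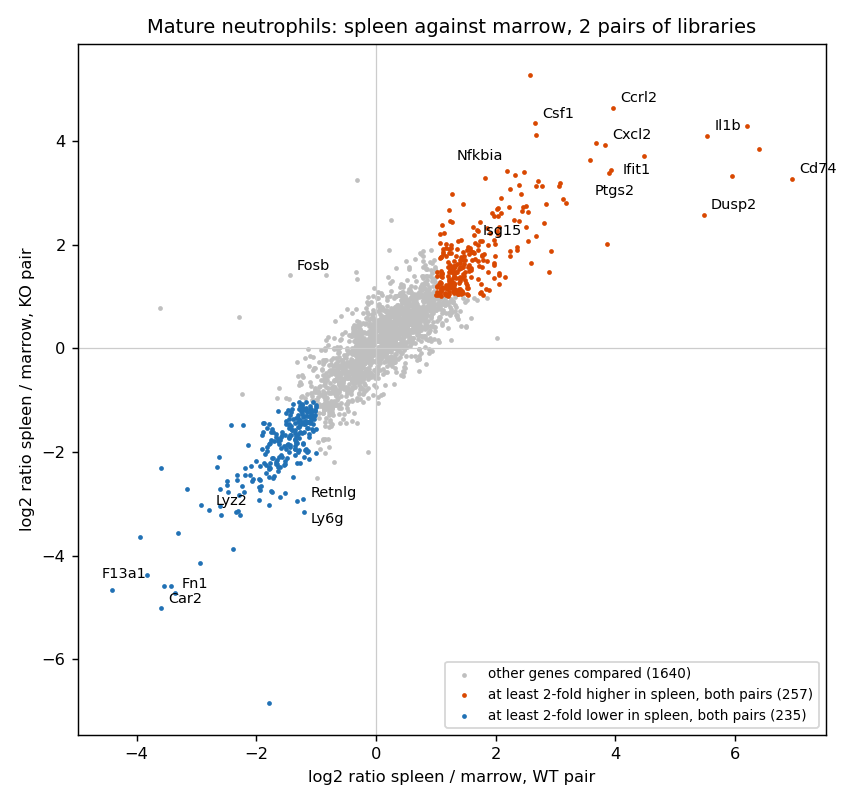
Log2 ratio of spleen to marrow in mature neutrophils for 2132 genes, WT pair on the x axis and KO pair on the y axis; each point is a gene, orange for the 257 called higher in both pairs and blue for the 235 called lower. Il1b, Ccrl2 and Cxcl2 lie at the upper right, F13a1, Fn1 and Car2 at the lower left, and Fosb is the gene called in opposite directions.

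Il1b, Cxcl2 and Ccrl2, inflammatory messages with deep counts, were among the 12 genes with the highest ratios. Il1b encodes interleukin 1 beta, and its level was 156 CPM in marrow WT, 7272 in spleen WT, 695 in marrow KO and 11997 in spleen KO. The spleen level was 46.5-fold higher in the WT pair (35.8 to 61.8) and 17.3-fold higher in the KO pair (15.8 to 18.8). Cxcl2, a chemokine that attracts neutrophils through Cxcr2, was at 1057, 14951, 1142 and 17463 CPM, and its ratios were 14.1 (12.8 to 15.7) and 15.3 (14.3 to 16.4). Ccrl2, a non-signalling receptor that binds chemerin, was at 193, 3023, 182 and 4572 CPM with ratios of 15.7 (12.3 to 20.2) and 25.2 (21.3 to 29.9). For each of the 3 genes both spleen libraries lay far above both marrow libraries.

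These messages were spread over most spleen cells and were not held by a few. When every cell was drawn down to 1000 UMIs, which left out 0, 72, 15 and 25 shallower cells, Il1b was found in 16.7% of cells in marrow WT (95% Clopper-Pearson interval 8.62 to 27.9), 93.5% in spleen WT (92.3 to 94.5), 37.8% in marrow KO (31.8 to 44.2) and 98.1% in spleen KO (97.0 to 98.8). Without this thinning the shares were 30.3, 97.5, 50.4 and 99.6%. Spleen T cells, which should lack the message, had Il1b in 1.42% (WT) and 0.831% (KO) of cells at the same depth, with unthinned median depths of 3110 and 4071 UMIs. Il1b, Cxcl2 and Ccrl2 together took a median of 0.10% of a cell's UMIs in each marrow library, 2.50% in spleen WT and 3.40% in spleen KO. The 10th percentile of spleen WT, 0.50%, was above the 90th percentile of marrow WT, 0.40%.

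**Figure D2:**
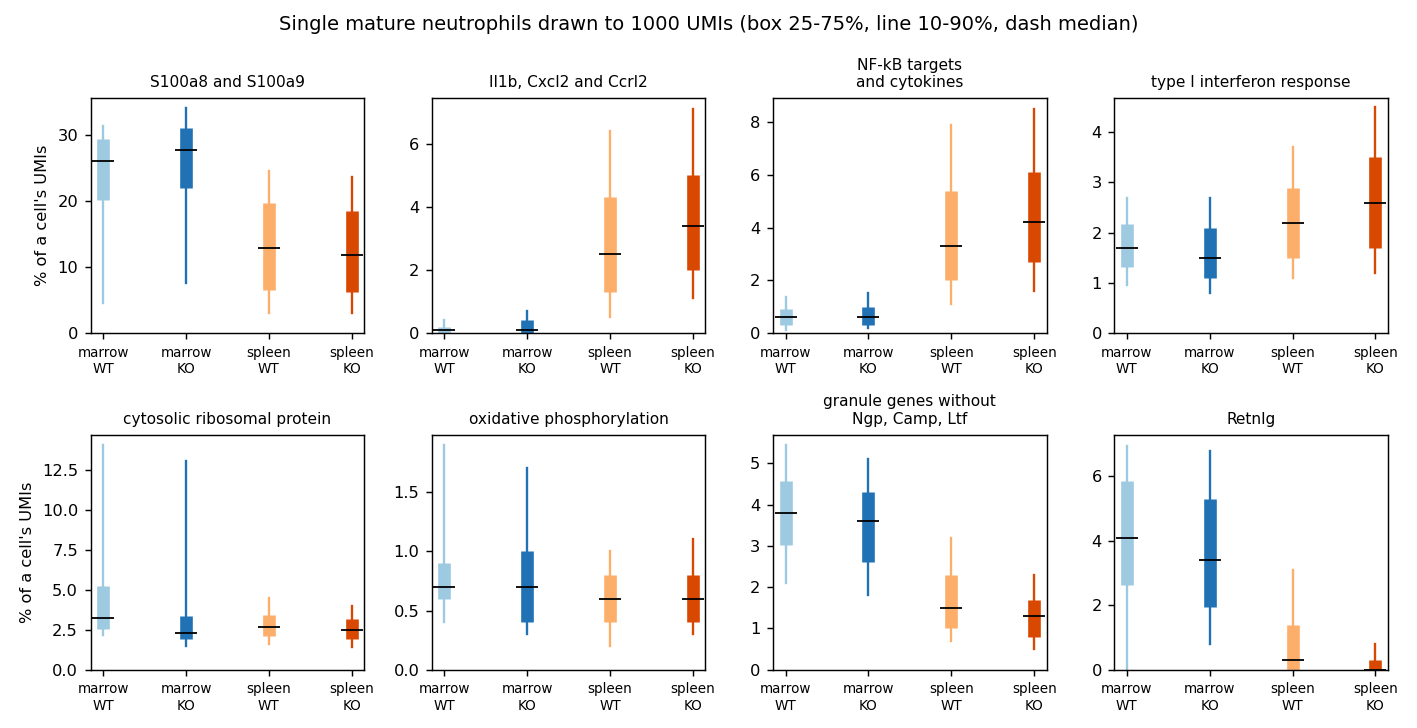
Share of a cell's UMIs, in percent, taken by 8 genes or gene groups in single mature neutrophils drawn to 1000 UMIs, by library; boxes span the 25th to 75th percentile, thin lines the 10th to 90th, dashes the median. Il1b, Cxcl2 and Ccrl2 have a median of 0.10% in both marrow libraries and 2.50% and 3.40% in spleen, and Retnlg 4.10% and 3.40% in marrow and 0.30% and 0% in spleen.

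Targets of the transcription factor NF-kB and cytokines formed the list to which Il1b and Cxcl2 belong. Of its 41 genes 21 were within the limits, 11 of them (52.4%) were higher in both pairs and 0 lower, against 12.1% and 11.0% of all genes compared. The list's median log2 ratio was 1.07 in the WT pair and 2.04 in the KO pair, beside 0.12 and 0.19 over all genes compared. Nfkbia, the inhibitor that NF-kB induces to limit itself, was at 616, 2804, 287 and 3095 CPM. Ptgs2, which makes prostaglandins, was at 11.4, 183, 29.6 and 319 CPM, and Cxcl3, another Cxcr2 ligand, at 14.2, 126, 12.9 and 126. Their marrow values rest on few UMIs, 4 (WT) and 23 (KO) for Ptgs2 and 5 and 10 for Cxcl3. The ratios were 16.1 (6.27 to 59.2) and 10.8 (7.13 to 17.1) for Ptgs2, and 8.90 (3.80 to 27.5) and 9.77 (5.25 to 20.5) for Cxcl3. Each of these genes was higher in both spleen libraries than in either marrow library. Osm, a cytokine of the interleukin 6 family, had log2 ratios of -0.63 and -0.40 and was not called.

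Ccl3 and Ccl4, chemokines for monocytes and lymphocytes, gave the pairs different signs. Ccl4 was at 2389, 195, 391 and 676 CPM, and 3 of the 66 cells of marrow WT held 73.1% of that library's Ccl4 UMIs. Since such cells can carry a level, each count was also made without members that held transcripts known from other cells. Left out were cells with at least 2 UMIs of monocyte (F13a1, Fn1, Ccr2, Ms4a6c), dividing or erythroid (Stmn1, Car2, Mki67, Top2a), T or NK cell (Cd3g, Trbc2, Lck, Nkg7), B cell (Cd79b and Ms4a1 among them), macrophage (C1qa, C1qb, C1qc, Vcam1), basophil (Mcpt8, Prss34, Cpa3, Fcer1a), plasmacytoid dendritic cell (Siglech, Ccr9) or platelet (Pf4, Ppbp) markers, at least 5 UMIs of class II genes, or over 3 times the median depth of their library's members. These limits were chosen after the data were seen. They removed 19 of 66, 153 of 2153, 58 of 266 and 56 of 1017 cells (28.8, 7.11, 21.8 and 5.51%), and the cells that stayed are called clean cells here. In clean cells Ccl4 was at 17.3, 185, 73.4 and 610 CPM, and Ccl3 at 40.4, 296, 78.3 and 588. The NF-kB and cytokine list then had 16 of 21 genes higher in both pairs and 0 lower, with medians of 2.25 and 2.60. Over all 1788 genes within the limits in clean cells, 13.8% were higher and 2.96% lower in both pairs, with medians of 0.32 and 0.36. These are the shares to set beside every count in clean cells below.

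Sequence upstream of Cxcl2 and Nfkbia is shown because 11 of the 21 listed genes were higher in both pairs, while 10 were not called in both. The genes shown were picked after their values were seen. A common form of the NF-kB site, GGGA, any 2 bases and TTCC, was searched on both strands from 250 bases before to 50 bases after each RefSeq gene start (GRCm38.p6). It was found in 1.43% of 27025 promoters, in 1.65% of the 1700 matched to genes compared, in 3.83% of the 209 promoters matched to genes higher in both pairs, in 1.59% of the 189 matched to genes lower in both, and in 5 of the 33 matched to the list (15.2%). A match is a description of the letters and not a binding site. The list is made up of NF-kB targets and cytokines, so its share does not bear on the difference between tissues. Capitals mark the matches, and for Cxcl2 the capitals hold 2 overlapping matches, on chromosome 5 from 90903649 to 90903948 (plus strand), with Nfkbia on chromosome 12 from 55492598 to 55492897 (minus strand). The Il1b window held 0 matches.
Cxcl2: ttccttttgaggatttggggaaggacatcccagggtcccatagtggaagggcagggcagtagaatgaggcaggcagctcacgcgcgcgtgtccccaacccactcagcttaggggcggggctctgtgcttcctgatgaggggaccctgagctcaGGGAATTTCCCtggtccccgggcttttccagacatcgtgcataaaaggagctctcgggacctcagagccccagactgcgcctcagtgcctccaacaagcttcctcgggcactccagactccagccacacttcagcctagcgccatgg
Nfkbia: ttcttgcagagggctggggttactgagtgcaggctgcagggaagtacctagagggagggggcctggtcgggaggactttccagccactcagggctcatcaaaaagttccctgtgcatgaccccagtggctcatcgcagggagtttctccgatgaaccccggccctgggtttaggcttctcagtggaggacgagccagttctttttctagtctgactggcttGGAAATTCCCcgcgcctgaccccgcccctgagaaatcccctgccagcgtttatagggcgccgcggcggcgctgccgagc

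Immediate early genes, which follow signals within minutes without new protein, had 26 of 37 members within the limits, and 11 (42.3%) were higher in both pairs and 0 lower. Over all genes compared 12.1% were higher and 11.0% lower. The list's medians were 0.94 and 1.48, beside 0.12 and 0.19 over all genes compared. Dusp2, a phosphatase that switches off MAP kinases, was at 2.84, 170, 43.8 and 267 CPM; the marrow WT value rests on 1 UMI, so its ratio of 59.7 has an interval of 10.7 to 2361, and the KO pair gave 6.1 (4.33 to 8.88). Socs3, a brake on cytokine receptors, was at 65.3, 476, 68.3 and 478 CPM, and Junb, a subunit of the AP-1 factor, at 1736, 4665, 1236 and 5299. The lower spleen library was above the higher marrow library for both genes. Jun and Ier2 were not called in both pairs, with log2 ratios of -2.25 and -0.88 for Jun and -0.42 and 0.26 for Ier2. Without cells carrying other cells' transcripts, 17 of 24 members were higher in both pairs, with medians of 1.47 and 1.81.

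**Figure D3:**
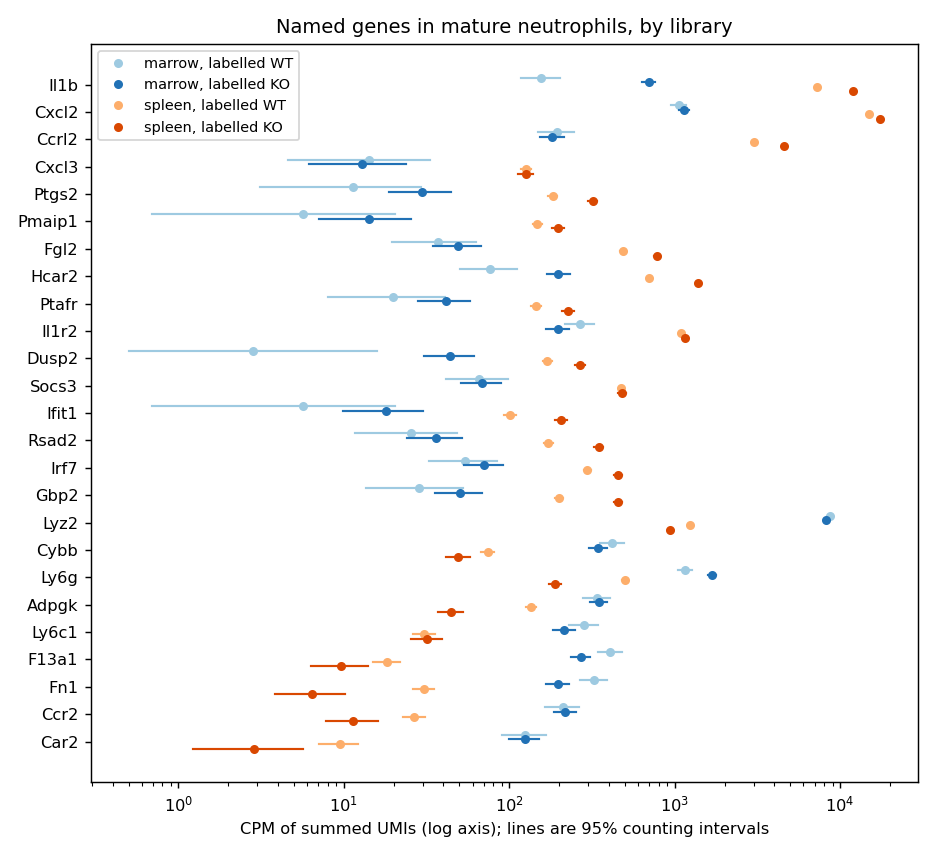
Level of 25 genes in the summed UMIs of mature neutrophils, in CPM on a log axis, 1 point per library (blues marrow, oranges spleen) with exact Poisson 95% counting intervals. Genes of inflammation and interferon response sit to the right in both spleen libraries; Lyz2, Cybb, Ly6g, Adpgk and Ly6c1 and the monocyte and erythroid genes F13a1, Fn1, Ccr2 and Car2 sit to the left.

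Genes of the type I interferon response were the list with the largest share called higher apart from class II. Of 42 genes 23 were within the limits, 15 (65.2%) were higher in both pairs and 2 (8.70%) lower, with medians of 1.40 and 1.54. All genes compared had 12.1% higher and 11.0% lower, with medians of 0.12 and 0.19. Rsad2, the antiviral protein viperin, was at 25.6, 172, 36.1 and 348 CPM. Isg15, a ubiquitin-like modifier, was at 165, 703, 194 and 1192, and Irf7, the factor that amplifies interferon production, at 54.0, 297, 70.8 and 452. Ifit1, which binds foreign RNA, had 2 UMIs in marrow WT (5.68 CPM), 101 CPM in spleen WT, 18.0 in marrow KO and 207 in spleen KO, so its ratios were 17.8 (4.90 to 147) and 11.5 (6.77 to 21.1). For all 4 genes the lower spleen library was above the higher marrow library. The 2 lower genes were Ifitm6, at 2954, 872, 2090 and 309 CPM, and Ms4a6c, a gene of monocytes, at 364, 47.0, 308 and 36.8. In clean cells 12 of 23 members were higher in both pairs and 1 lower.

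Interferon-stimulated response elements were searched as GAAA, any 2 bases and GAAA on both strands in the same windows. The reason was that 15 of the 23 genes of this list were higher in both pairs. The motif was in 3.49% of all promoters, in 4.35% of the 1700 for genes compared and in 8.13% of the 209 for genes higher in both pairs. It was in 4.76% of the 189 for genes lower in both and in 15 of the 34 promoters matched to the interferon list (44.1%). That list is made up of interferon response genes, so its share does not bear on the difference between tissues. Ifit1 lies on chromosome 19, window 34640639 to 34640938 (plus strand), with 2 matches, and Isg15 on chromosome 4, window 156200769 to 156201068 (minus strand), with 3 overlapping matches in 1 run of capitals.
Ifit1: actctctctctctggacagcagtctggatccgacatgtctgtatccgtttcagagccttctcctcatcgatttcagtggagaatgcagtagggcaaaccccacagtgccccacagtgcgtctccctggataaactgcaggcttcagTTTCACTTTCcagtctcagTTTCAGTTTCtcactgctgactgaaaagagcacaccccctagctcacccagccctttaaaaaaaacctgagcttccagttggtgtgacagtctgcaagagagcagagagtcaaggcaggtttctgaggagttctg
Isg15: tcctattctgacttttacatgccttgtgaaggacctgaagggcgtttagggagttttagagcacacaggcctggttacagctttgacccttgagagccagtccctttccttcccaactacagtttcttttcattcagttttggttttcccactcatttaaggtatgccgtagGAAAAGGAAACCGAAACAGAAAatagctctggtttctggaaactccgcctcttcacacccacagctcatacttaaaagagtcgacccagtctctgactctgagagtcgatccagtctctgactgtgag

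Genes induced by interferon gamma had 9 of 30 members within the limits, with 4 (44.4%) higher in both pairs and 0 lower. All genes compared had 12.1% higher and 11.0% lower. Gbp2, a guanylate-binding protein of cell defence, was at 28.4, 200, 50.2 and 452 CPM, and Irf1, an interferon regulatory factor, at 105, 289, 70.8 and 496. MHC class I genes were higher by a smaller factor: 3 of 6 within the limits were called, and H2-K1 was at 866, 1737, 1272 and 2608 CPM with ratios of 2.0 (1.79 to 2.25) and 2.05 (1.92 to 2.19). The class I calls of H2-K1 and H2-T24 lay close to the 2-fold limit in the WT pair, with log2 ratios of 1.003 and 1.012. In clean cells 5 of 9 interferon gamma genes and 2 of 6 class I genes were higher in both pairs. In cells with 0 UMIs of Ngp, Camp and Ltf, 3 of 10 interferon gamma genes and 0 of 6 class I genes were higher in both.

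Receptors and adhesion molecules moved in part. Of 31 chemoattractant and pattern receptors within the limits 12 (38.7%) were higher in both pairs and 0 lower, with medians of 0.56 and 1.0. All genes compared had 12.1% higher and 11.0% lower, with medians of 0.12 and 0.19. Hcar2, a receptor for ketone bodies and niacin, was at 76.7, 703, 198 and 1389 CPM, Ptafr, the receptor for platelet-activating factor, at 19.9, 146, 41.2 and 226, and Cd14, a co-receptor for bacterial lipopolysaccharide, at 205, 833, 146 and 943. Il1r2, the decoy receptor for interleukin 1, was at 267, 1098, 196 and 1161 CPM, so that the ligand Il1b and its decoy were both higher. The formyl peptide receptors were not: Fpr1 had log2 ratios of 0.16 and -0.45 and Fpr2 of -0.86 and -1.0. Among chemokine receptors and adhesion genes 5 of 16 (31.25%) were higher in both pairs and 1 (6.25%) lower, against the same 12.1% and 11.0%. Itga4, the alpha 4 integrin, had ratios of 3.34 (2.20 to 5.35) and 3.05 (2.36 to 3.99). Cxcr4, the receptor that holds neutrophils in marrow, gave -0.40 and 0.69 on the log2 scale. In clean cells the counts were 7 higher and 1 lower of 31 receptors and 3 higher of 15 adhesion genes.

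Some survival genes and transcription factors were higher in spleen. Of 12 survival and death genes 6 (50%) were higher in both pairs and 0 lower, with medians of 1.02 and 1.23. All genes compared had 12.1% higher and 11.0% lower, with medians of 0.12 and 0.19. Pmaip1, the death-promoting protein Noxa, was at 5.68 (2 UMIs), 148, 14.2 and 198 CPM, with ratios of 26.0 (7.19 to 215) and 14.0 (7.76 to 28.2), and Birc3, an inhibitor of apoptosis, was at 34.1, 143, 39.9 and 188. Mcl1, on which neutrophil survival depends, had log2 ratios of 1.24 and 1.61. Both a promoter and inhibitors of cell death were therefore among the genes higher in spleen. Of 20 granulocyte transcription factors 8 (40%) were higher in both pairs and 0 lower, led by Ets2 at 105, 605, 125 and 849 CPM. Their medians were 0.77 and 0.84. Spi1, the factor PU.1, had ratios of 1.04 and 0.95 on the log2 scale and missed the limit in 1 pair. In clean cells 4 of 11 survival genes and 7 of 18 transcription factors were higher in both pairs, and 0 of either list lower.

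Genes linked to suppressive myeloid cells had 9 of 16 members higher in both pairs and 0 lower, with medians of 1.11 and 1.28. Il1b, Ptgs2 and Cxcl3 belong to this list too, as does Cd14. The other 5 of the 9 were Clec4e, a lectin that senses damaged cells and microbes, with 1.62 and 1.87, and Cd84, Wfdc17, Il4ra and Trem1, with log2 ratios between 1.02 and 1.44. Arg2, an arginase, had 1.09 and 0.97 and was called in the WT pair alone. Among other named genes, Fgl2, a secreted fibrinogen-like protein, was at 36.9, 486, 48.9 and 780 CPM. Slc40a1, the iron exporter ferroportin, was at 73.9, 565, 152 and 565 CPM, and Slc2a1, a glucose transporter, at 22.7, 175, 52.8 and 149. The glycolysis list as a whole was near 0, with 1 of 18 genes (5.56%) called higher in both pairs and medians of 0.20 and -0.10.

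**Figure D4:**
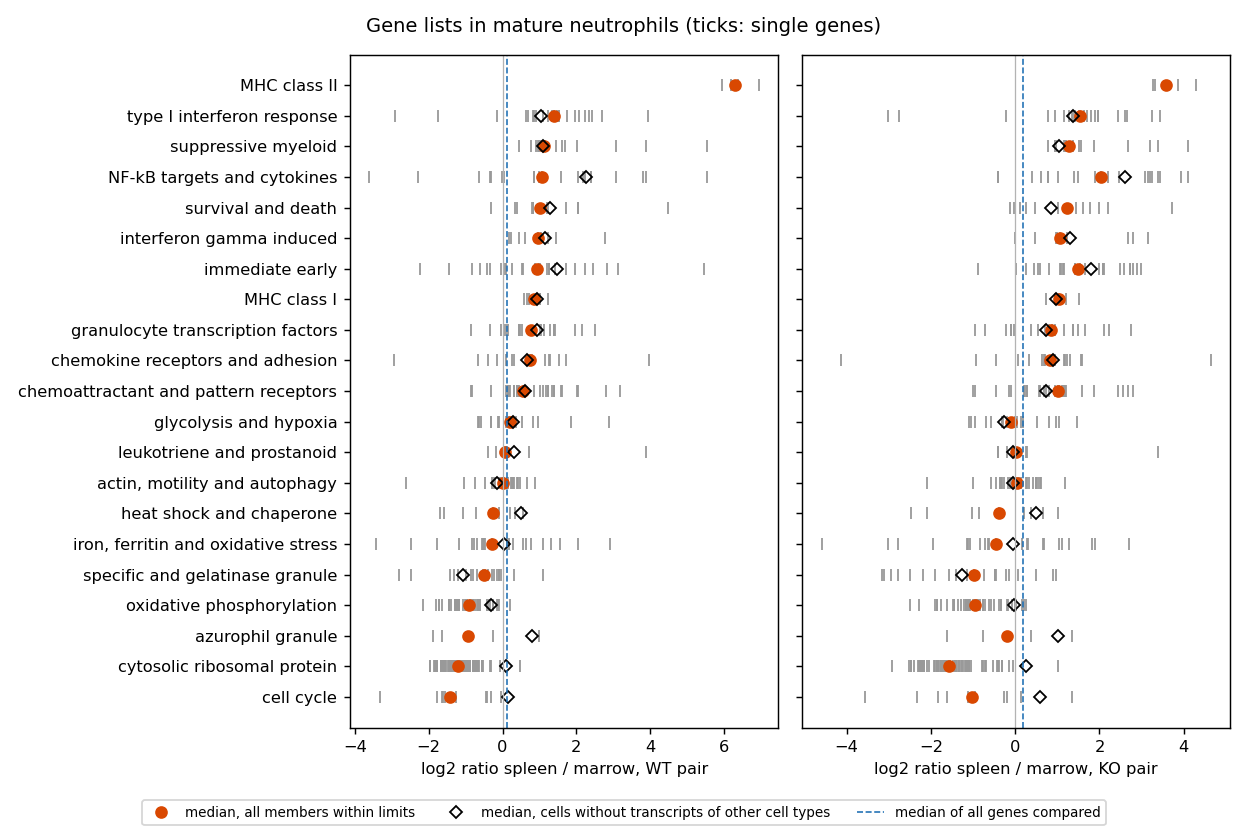
Log2 ratio of spleen to marrow for 21 gene lists in the WT pair (left) and KO pair (right); ticks are single genes within the limits, orange circles the list median, open diamonds the median in cells without transcripts of other cell types, the dashed line the median of all genes compared (0.12 and 0.19). By the circles, NF-kB targets, interferon and immediate early genes lie right of the dashed line in both pairs and granule genes left of it. Diamonds are taken over the genes within the limits in the cleaner cells. For the ribosomal and cell cycle lists these are only 4 genes each, with medians near or above 0.

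Retnlg and some members of the granule gene list were lower in spleen. Among specific and gelatinase granule genes, a list whose members Ngp, Camp and Ltf set the rule and were left uncounted, 5 of 21 (23.8%) were lower in both pairs, against 11.0% of all genes compared, and 0 higher, with medians of -0.50 and -0.97. The 5 were Lyz2, Cybb, Adpgk, Ly6g and Stfa3. The other 16 were not called in both pairs, among them Arg2 with log2 ratios of 1.09 and 0.97 and Hp, haptoglobin, with 0.30 and 0.08. Also not called in both were Lcn2 (-0.79 and -1.91), Mmp8 (-0.70 and -2.20), Mmp9 (-0.50 and -0.74) and Cd177 (-0.98 and -2.50). Lyz2, lysozyme, was at 8633, 1240, 8221 and 942 CPM, with ratios of 0.144 (0.138 to 0.150) and 0.115 (0.109 to 0.120). Cybb, the catalytic subunit of the NADPH oxidase, was at 418, 74.1, 344 and 49.3 CPM, Adpgk, an ADP-dependent glucokinase, at 338, 135, 348 and 44.3, and Ly6g, the surface protein used to identify mouse neutrophils, at 1153, 498, 1687 and 189. Each was lower in both spleen libraries than in either marrow library. In clean cells 11 of 21 were lower in both pairs, with medians of -1.08 and -1.25. Drawn to 1000 UMIs per cell, granule genes other than Ngp, Camp and Ltf took a median of 3.80% and 3.60% of a cell's UMIs in marrow WT and marrow KO, and 1.5% and 1.3% in spleen WT and spleen KO. The specific granule genes of the rule itself were at 0 UMIs in 27.3% of members of marrow WT, 54.0% of spleen WT, 44.0% of marrow KO and 80.5% of spleen KO. The limit was thus used to a different extent in the 4 libraries. In cells with 0 such UMIs, 18, 1163, 117 and 819 in number, 216 genes were higher in both pairs and 243 lower, with 12 of 21 NF-kB and cytokine genes higher.

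S100a8 and S100a9, calcium-binding proteins that neutrophils store in the cytosol, took a median of 26.3, 12.7, 27.4 and 11.6% of a member's UMIs. Their use in the rule makes this a description. Retnlg in cells drawn to 1000 UMIs had a median share of 4.10% in marrow WT and 3.40% in marrow KO, against 0.30% in spleen WT and 0% in spleen KO.

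Several of the genes with the lowest ratios are known from other cells. F13a1, a coagulation factor made by monocytes, was at 406, 18.2, 270 and 9.65 CPM, Fn1, fibronectin, at 324, 30.5, 196 and 6.43, and Ccr2, the receptor that brings monocytes to tissue, at 210, 26.6, 218 and 11.4. At least 2 UMIs of F13a1, Fn1, Ccr2 and Ms4a6c were found in 15.2% and 12.4% of members in marrow WT and marrow KO and in 2.09% and 1.77% in spleen WT and spleen KO. Car2, a carbonic anhydrase of red cell precursors, was at 125, 9.44, 124 and 2.86 CPM, and all 44 of its UMIs in marrow WT were in 1 cell. Prdx2 and Alad, also abundant in red cell precursors, had log2 ratios of -3.43 and -4.60 for Prdx2 and -3.82 and -4.37 for Alad. S100a10, Lgals1, Stmn1 and Ly6c1, also among the 12 lowest, had log2 ratios between -2.72 and -4.59. The reads of Ly6c1 and of its near copy Ly6c2 could be split between them in counting, so each alone is uncertain.

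The whole list of 10 monocyte markers had a summed level of 2031 CPM in marrow WT (8 with a UMI, Ace and Treml4 at 0), 411 in spleen WT (all 10), 1711 in marrow KO (9, Ace at 0) and 369 in spleen KO (all 10). Basophil or mast cell markers, 8 in number, summed to 472, 0.337, 607 and 0 CPM, with 5 and 6 cells in marrow WT and marrow KO holding at least 2 UMIs of Mcpt8, Prss34, Cpa3 and Fcer1a and 0 in the spleen libraries. Granulocyte and monocyte progenitor markers, with the rule's Elane, Prtn3 and Mpo among them, summed to 699, 78.5, 524 and 34.3 CPM. At least 2 of their UMIs were found in 77.3, 2.97, 31.6 and 1.77% of members, without thinning. Immature neutrophil markers, with the rule's Ngp, Camp and Ltf among them, summed to 6727, 3642.5, 6300 and 1563 CPM. At least 2 UMIs of that list were found in 100, 68.5, 87.2 and 44.8% of members. All of these moved with the genes called lower, and their part in those calls was not tested beyond the counts that follow. In clean cells 53 genes were lower in both pairs, 2.96% of the 1788 within the limits, where 235 had been. Of the 235, 30 (12.8%) were still called. The others were not split into genes that fell outside the limits and genes no longer called within them. Removing doublets scored by simulation instead left 78 lower genes. F13a1, Fn1, Ccr2, Ms4a6c, Car2 and Stmn1 chose the cells to leave out, so their loss in clean cells is by construction. Lyz2 had log2 ratios of -2.13 and -2.92 in clean cells and Ly6c1 of -2.81 and -2.34.

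The ribosomal, oxidative phosphorylation, heat shock and cell cycle lists also had members lower in both pairs and 0 higher. Of 79 ribosomal protein genes within the limits 53 (67.1%) were lower in both pairs, with medians of -1.22 and -1.56, and 16 of 44 oxidative phosphorylation genes, 5 of 10 cell cycle genes and 2 of 9 heat shock genes were lower (36.4, 50 and 22.2%), against 11.0% of all genes compared. In clean cells 4 ribosomal protein genes passed the limits and 0 were called in both pairs. Per cell at 1000 UMIs the ribosomal share had medians of 3.25, 2.70, 2.30 and 2.50% for marrow WT, spleen WT, marrow KO and spleen KO, and the 90th percentiles were 14.1, 4.50, 13.1 and 4.0%. Both marrow libraries lay above both spleen libraries at the 90th percentile, and the medians did not separate by tissue.

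The 4 class II genes, which present antigen to helper T cells, had ratios among the largest, and rested on few cells in each library. Cd74, the invariant chain, was at 17, 2226, 194 and 1890 CPM, H2-Aa at 17, 1111, 92.7 and 940, H2-Eb1 at 8.52 (3 UMIs), 697, 28.3 and 574 and H2-Ab1 at 5.68 (2 UMIs), 562, 32.2 and 479. H2-Ab1 had ratios of 98.9 (27.3 to 817) and 14.9 (10.0 to 23.1), and H2-Eb1 of 81.8 (28.0 to 397) and 20.3 (13.3 to 32.4). A UMI of Cd74 was present in 29.5% and 26.9% of spleen WT and spleen KO members and in 3.03% and 0.752% of marrow WT and marrow KO members, and all 151 Cd74 UMIs of marrow KO were in 2 cells. All other kept cells of spleen WT and spleen KO had Cd74 at 8666 and 7791 CPM. At least 5 class II UMIs were found in 1.52, 3.72, 0.752 and 3.34% of members. Clean cells exclude these by construction, and in them Cd74 had 651 UMIs in spleen WT (134 CPM, from 13212 UMIs before) and 279 in spleen KO (115 CPM, from 5290), with 0 in both marrow libraries, and 0 of the 4 genes were within the limits. Without scored doublets the KO-pair log2 ratio of Cd74 was -0.56, of H2-Aa -0.80 and of H2-Ab1 -0.44. The part of other cells and of free RNA in these 4 genes was not tested.

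Calls were repeated under other choices of cells. In clean cells 246 genes were higher in both pairs, 13.8% of the 1788 within the limits. Of the 257 higher genes 178 (69.3%) were still called. Over 7 choices of cells (thinned, equally weighted, without specific granule UMIs, at least 5% S100a8 and S100a9, at most 5% mitochondrial UMIs, without doublets, and clean), 96 of the 257 higher genes (37.4%) and 14 of the 235 lower genes (5.96%) were called in every one. The 96 included Il1b, Cxcl2, Cxcl3, Ccrl2, Ptgs2, Nfkbia, Pim1, Socs3, Dusp2, Junb, Isg15, Ifit1, Rsad2, Irf7, Gbp2, Hcar2, Ptafr, Cd14, Il1r2, Pmaip1, Birc3, Fgl2, Igfbp6 and Slc40a1. The 14 included Lyz2, Cybb, Adpgk, Ly6c1, Ly6c2, Ifitm6, Lgals3 and Emp3. Csf1, the macrophage growth factor, was among the 96 at 31.2, 202, 18.0 and 386 CPM, and Acod1, which makes itaconate, at 76.7, 494, 67.0 and 1177.

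**Figure D5:**
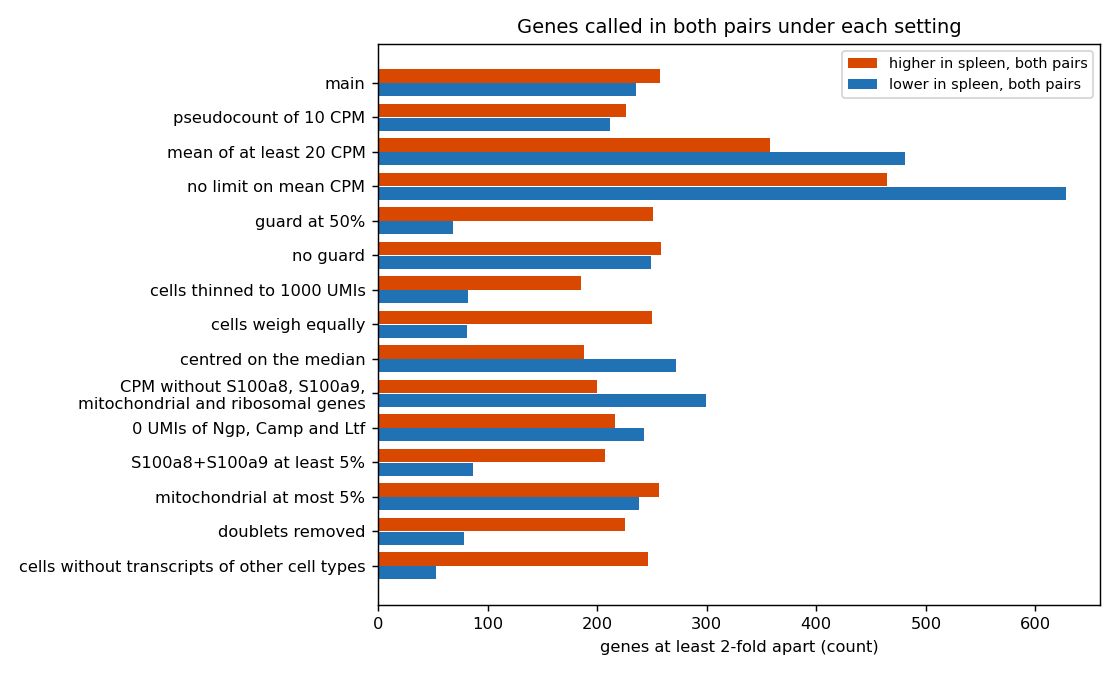
Number of genes at least 2-fold higher (orange) or lower (blue) in spleen in both pairs under each way of choosing cells, scaling or filtering. Higher genes stay between 185 and 465, while lower genes range from 53 in cells without transcripts of other cell types to 628 with no limit on the mean.

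Immature neutrophils, cells with Csf3r and at least 0.5% of UMIs from Ngp, Camp and Ltf, were the nearest other cells with enough barcodes (110, 324, 336 and 69). Their NF-kB and cytokine list had median log2 ratios of 0.34 and 0.19 and their interferon list 0.25 and -0.37, beside -0.06 and -0.17 over the same 2132 genes. Il1b was at 22.8, 125, 51.4 and 177 CPM in them and Cxcl2 at 243, 953, 185 and 678, so both messages were also higher in spleen there. Lyz2 and Ly6g had log2 ratios of 0.03 and -0.04 (Lyz2) and -0.02 and -0.57 (Ly6g) there. All other kept cells together, whose mix of cell types differs with the enrichment, had medians of 1.41 and 1.34 for the NF-kB and cytokine list, 2.17 and 0.95 for the type I interferon list, 1.47 and 1.43 for immediate early genes and 1.58 and 1.67 for class I genes, beside 0.24 and 0.09 over all genes compared. In that mixture the medians of these lists were therefore higher in spleen too. Immature neutrophils had -0.07 and -0.72 for immediate early genes and -0.03 and -0.31 for class I genes, all below 0. T cells of the KO pair (56 and 3874 cells) had 0.48 for the NF-kB and cytokine list and 0.80 for type I interferon. They had 0.64 for interferon gamma genes, -0.08 for immediate early genes and 0.24 for class I genes, beside -0.07 over all genes. The difference between mature neutrophils and these cells was not tested. Monocytes chosen by a like rule numbered 37, 27, 137 and 39 and T cells of marrow WT 29, too few to compare.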

How the data were processed

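The authors deposited 10x matrices of UMI counts per gene and barcode, 1 per library. Reads were aligned to mm10 with Cell Ranger 6.0.0 per the submitters' processing notes, or 6.1.0 per the file headers. Whether the 5' or the 3' kit was used is uncertain, since both are in the labels. The rule was applied to barcodes that had 300 genes or more, 500 UMIs or more and no more than 10% mitochondrial UMIs. Raw counts were summed over members and scaled to CPM (Python 3.11.15, scipy 1.17.1). Ratio intervals are exact conditional binomial and CPM intervals exact Poisson, at 95%, for counting error only; they take no account of differences between mice. Doublets were kept apart from the marker exclusions, and removing the highest Scrublet scores (scanpy 1.11.5) was an alternative. Genes named are the 12 highest and 12 lowest, up to 4 per list, any with opposite directions, and others given as description. Library totals were 40377940 to 75873784 UMIs. The calling step was run on simulated counts drawn from a pooled profile, without the free RNA guard and without differences between cells. That run could not show the effect of a few cells carrying a gene. Tumor libraries were not used here. The members and gene lists were chosen with earlier results of these data known. Some items are not reported here.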

Additional observations from a re-analysis of the deposited data

Results flagged for a closer look

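Fosb, a subunit of the AP-1 factor, was the 1 gene called in opposite directions. Its log2 ratio of spleen to marrow was -1.44 in the WT pair and 1.42 in the KO pair, from 381, 139, 87.6 and 236 CPM in the order marrow WT, spleen WT, marrow KO, spleen KO. In marrow WT the gene had UMIs in 14 of 66 cells, and the top 3 cells held 63.4% of its 134 UMIs. In cells without transcripts of other cell types its log2 ratios were -0.37 and 3.94, and it was then not called in the WT pair. The difference between the pairs was not tested.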

How the results depend on the processing

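Higher genes numbered 465 with no limit on mean CPM, 494 at 1.5-fold and 89 at 3-fold, against 257. Lower genes, 235 in the report, numbered 481 with a mean of at least 20 CPM, 628 with no limit, 68 with the free RNA guard at 50%, 82 in thinned cells, 81 with cells weighted equally, 87 with S100a8 and S100a9 at 5% or more, 78 without doublets, 389 at 1.5-fold, 90 at 3-fold and 53 in cells without transcripts of other cell types (chosen after seeing the data). Genes with opposite directions numbered 2 with a mean of 20 CPM, 4 with no limit, 3 in thinned cells, 2 with equal weights, 6 with 0 specific granule UMIs, 3 without doublets, 4 at 1.5-fold, 0 at 3-fold and 0 in cells without other transcripts, against 1. The cause of these changes was not tested, apart from the limits and folds, which act by construction. Of 2324 values of named genes under 14 alternatives 30 changed sign, as did 30 of 586 list medians.

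Sign changes follow as log2 ratios, WT pair before KO pair where both changed. List medians here are over the members within the limits of the report, also where an alternative had fewer within its own limits. The leukotriene list gave -0.14 (WT, thinned), -0.074 (KO, equal weights), -0.050 and -0.17 (centred), -0.071 and -0.18 (reduced total), -0.053 (KO, 0 granule UMIs), -0.051 (KO, 5% S100) and -0.059 (KO, without other transcripts). The actin list gave -0.029 and -0.098 (thinned), -0.062 and -0.051 (equal weights), -0.10 and -0.15 (centred), -0.13 and -0.16 (reduced total), -0.0067 (KO, 0 granule UMIs), -0.090 and -0.059 (5% S100), -0.034 (WT, without doublets) and -0.14 and -0.051 (without other transcripts). Heat shock gave 0.021 (KO, 5% S100). In thinned cells Hsp90aa1 gave 0.18 (KO), Ggt5 -0.15 (WT) and Ptges3 0.23 (KO). With equal weights Ggt5 gave -0.33 and Ptges3 0.26 (KO). With 0 granule UMIs Car2 gave 1.28 (WT), Ggt5 -0.27 (KO) and Alox5 0.46 and 0.029. With 5% S100 Car2 gave 1.52 (WT). Without doublets the class II list gave -0.50, H2-Ab1 -0.44, H2-Aa -0.80, Cd74 -0.56, Ggt5 -0.12 and Ptges3 0.23 (KO), and Car2 3.42 (WT). In cells without other transcripts the azurophil list gave 0.16, the cell cycle list 0.34 and the ribosomal list 0.060 (KO), heat shock 0.26 and 0.49, Alad 1.16 (KO), Car2 1.02 and 0.50, Ms4a6c 2.46 (WT), Hsp90b1 0.062, Hsp90aa1 0.59, Ran 0.50 and Ggt5 -0.34 (KO), Hspa8 0.37 and 0.59, Ptges3 0.22 and 0.56 and Tmsb10 0.25 and 0.12. Their cause was not tested. No paired analysis was possible because the results come from no test: each tissue and label has 1 library. A fit of tissue with the label as a block, which would leave 1 residual degree of freedom, was not run. Marrow WT, with 66 cells, limits the depth of its pair.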

Other observations

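A few genes outside the lists' named members were looked at after their values had been seen. Cd274, which encodes the checkpoint ligand PD-L1, had 1, 255, 2 and 467 UMIs in marrow WT, spleen WT, marrow KO and spleen KO, or 2.84, 43.0, 2.58 and 167 CPM. Its ratios of spleen to marrow were 15.1 (2.69 to 600) and 64.8 (17.8 to 537), and 9.29% and 24.6% of spleen WT and spleen KO members had a UMI. Drawn to 1000 UMIs per cell the shares were 4.37% and 13.8%, beside 3.15% and 4.0% of T cells in those libraries (median depths 2259 and 2417 UMIs for members, 3110 and 4071 for T cells). In spleen WT the members' level was close to the 42.6 CPM of all other kept cells, and in spleen KO these were at 67.9 CPM. All other kept cells were at 4.35 and 4.51 CPM in marrow WT and marrow KO, so the gene was higher in spleen there too. Siglecf, a lectin best known from eosinophils, had 0, 138, 1 and 67 UMIs. In marrow WT 0 of 66 cells had a UMI, which allows a share of cells with a UMI of up to 4.55% and sets no limit on cells that express the gene. In the WT pair the spleen level was at least 2.73-fold higher, taken against 3 counts in marrow WT. In the KO pair the ratio was 18.6 (3.22 to 745). The 8 eosinophil markers, Siglecf among them, summed to 62.5, 41.6, 78.6 and 34.3 CPM, and Epx and Ear1 were at 0 in marrow WT and spleen KO.

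Cd3d, a T cell receptor subunit, was found in 43.9, 10.8, 24.4 and 6.78% of members, at 119, 51.9, 127 and 32.2 CPM. Its partner Cd3g had 0, 35, 1 and 5 UMIs, and Cd3e was at 0 by the rule.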
